A study of Mus musculus with 4 samples.

Results

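Broad H3K9ac domains in mouse embryonic stem (ES) cells were stretches of at least 5 kb over which acetylation of histone H3 at lysine 9 stayed high. The autosomes (chr1-19, mm9) were cut into fixed 1 kb bins, and bins with 30 or more H3K9ac tags and 20 or fewer input tags were kept. Kept bins at most 1 kb apart were joined, and this gave 46554 regions, of which 4962 (10.7%) reached 5 kb. A transcription start site (TSS) of a GENCODE vM1 transcript lay inside 3452 of these domains (69.6%, 95% exact binomial interval 68.3 to 70.8%), and 1510 (30.4%) held none. The domains were chosen by their H3K9ac and input counts. Their H3K9ac levels, their ratios of H3K9ac to input and their input levels are therefore given only as a description.

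The study compared the distribution of H3K9ac with that of H3K14ac by chromatin immunoprecipitation and sequencing (ChIP-seq) in untreated, wild-type E14 cells, a mouse ES line that the labels assign to strain 129P2/OlaHsd. There were 4 libraries: H3K9ac with the rabbit polyclonal antibody ab4441, H3K14ac with the monoclonal antibody 13HH3-1A5 (13HH3), H3K14ac with a second antibody, 7G8, and input DNA, chromatin taken without an antibody. All 4 groups shared the same line, and each was 1 library. No comparison therefore has a replicate check, and intervals cover counting error or the spread over domains only. The H3K9ac library held 23183487 tags, the 13HH3 library 21626965 after repeated tags were reduced to 1 per position and strand, the 7G8 library 23839094, and the input library 19313927. The study's methods describe growth on feeder cells followed by feeder-free passages, so fibroblast genes were checked too.

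Acetylation of lysines in the tail of histone H3 neutralises their charge and is read by bromodomain proteins, and it is found at promoters and enhancers of active genes. H3K9ac and H3K14ac are laid down by acetyltransferases of the Gcn5/PCAF and other families and are removed by histone deacetylases. Most acetylated promoters carry the marks over a few nucleosomes on either side of the TSS. In ES cells, genes of the pluripotency network such as Esrrb and the Mir290 cluster are known to lie beside clusters of enhancers, over which such marks can run on for many kilobases.

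The stretches below show DNA of 5 domains to which the results return. They are the 200 bp inside each domain with the most 13HH3 and 7G8 tags summed, read 5′ to 3′ from the mm9 genome. Capitals mark CpG dinucleotides, except in the Mir290 to Mir295 stretch, where they mark the DNA of the mature miR-291a-5p and miR-291a-3p.
Esrrb, chr12:87844101-87844300, + strand: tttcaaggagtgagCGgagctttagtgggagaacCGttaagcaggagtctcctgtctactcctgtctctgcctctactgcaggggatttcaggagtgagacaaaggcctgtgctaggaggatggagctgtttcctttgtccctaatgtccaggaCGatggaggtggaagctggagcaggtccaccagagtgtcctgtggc
Mir290 to Mir295, chr7:3218801-3219000, + strand: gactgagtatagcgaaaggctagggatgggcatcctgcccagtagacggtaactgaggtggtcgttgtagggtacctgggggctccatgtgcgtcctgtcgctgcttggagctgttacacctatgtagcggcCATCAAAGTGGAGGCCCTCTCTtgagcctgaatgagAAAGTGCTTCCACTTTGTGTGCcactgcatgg
Gm11735 and BC018473, chr11:116612601-116612800, + strand: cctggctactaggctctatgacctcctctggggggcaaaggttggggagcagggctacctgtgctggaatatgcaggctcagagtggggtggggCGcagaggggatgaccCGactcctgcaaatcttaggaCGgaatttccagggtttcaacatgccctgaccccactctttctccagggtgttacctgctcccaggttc
TSS-free, near Klf9, chr19:23163401-23163600, + strand: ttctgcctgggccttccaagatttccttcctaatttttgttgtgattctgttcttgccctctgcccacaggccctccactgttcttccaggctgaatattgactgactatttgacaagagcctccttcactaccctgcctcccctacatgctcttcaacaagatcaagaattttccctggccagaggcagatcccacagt
TSS-free, near Smarcad1, chr6:64971101-64971300, + strand: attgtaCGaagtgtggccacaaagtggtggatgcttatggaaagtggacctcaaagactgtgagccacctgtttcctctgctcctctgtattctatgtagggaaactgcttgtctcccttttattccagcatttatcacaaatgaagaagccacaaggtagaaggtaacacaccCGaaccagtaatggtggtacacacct

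The maximum of summed tags in the Mir290 to Mir295 domain fell on the miR-291a hairpin itself, and the other 4 stretches held between 0 and 3 CpGs. In these 200 bp, 13HH3 gave 28 tags at Esrrb, 49 at Mir290 to Mir295, 40 at Gm11735, 38 near Klf9 and 33 near Smarcad1. In the same order, 7G8 gave 16, 22, 11, 16 and 19 tags, fewer than 13HH3 in each. By 1 kb bins, 7G8 was highest elsewhere in the Mir290 to Mir295 domain, in the 9th kb. The tags of both antibodies chose the stretches, so these counts are a description. Input gave between 1 and 4 tags in each of them.

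The TSS-containing domains were longer than the TSS-free ones. A longer stretch has more room to hold a TSS, so the split itself bears on this order. The median length was 7 kb with a TSS and 6 kb without, and the longest domains spanned 52 kb and 39 kb. There were 877 domains of 10 kb or more with a TSS and 197 without, and 116 and 8 of 20 kb or more. The plot of lengths shows that both classes thinned out steadily from the 5 kb limit, at which 933 and 581 domains lay. In all, the domains covered 39.5 Mb, 1.60% of the autosomes, and held 9.07% of the autosomal H3K9ac tags, 3.91% of the 13HH3 tags, 3.61% of the 7G8 tags and 2.19% of the input tags.

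**Figure D1:**
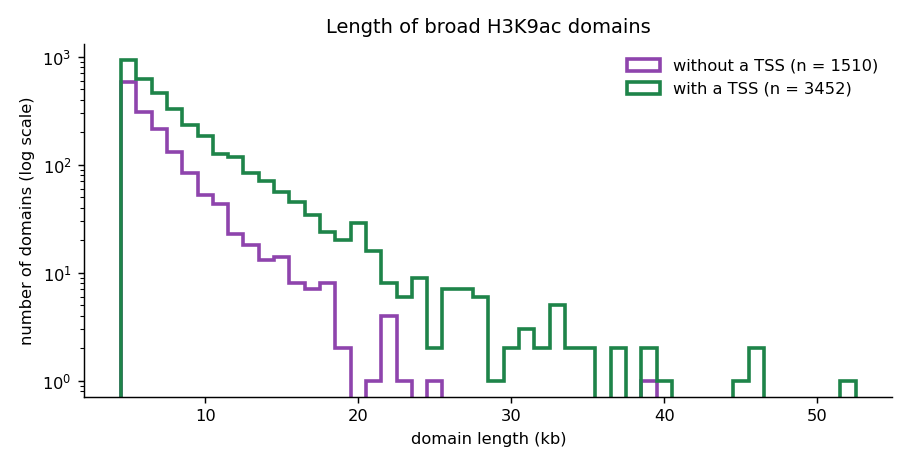
Number of broad H3K9ac domains (log axis) against their length in kb, as step histograms in 1 kb steps, for the 3452 domains with a TSS and the 1510 without. The domains with a TSS reach 52 kb, and those without reach 39 kb.

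Promoters of protein-coding genes made up most of the first class. Of 21418 protein-coding genes on the autosomes, 3959 (18.5%) had a TSS inside a domain. Of 1232 long intergenic noncoding RNA genes 246 did, and the share was 12.1% for snoRNA genes, 7.29% for miRNA genes and 1.65% for pseudogenes. Of the domains with a TSS, 74.2% held the TSS of 1 protein-coding gene, 18.3% of 2 and 2.90% of 3 or more, and 4.66% held TSSs of other transcripts only. The most crowded domain held 9 genes of the Hist1 cluster on chromosome 13, which encodes replication-dependent histones. That domain (27 kb) held 2667 H3K9ac, 525 13HH3, 784 7G8 and 156 input tags, and its log2 ratios over input were 1.59 (95% interval 1.33 to 1.85) for 13HH3 and 2.03 (1.78 to 2.28) for 7G8. Its genes are close copies of one another, so the placing of tags among them is uncertain.

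Genes known to be active in ES cells were held by broad domains more often than the 18.5% of all protein-coding genes. These counts describe H3K9ac, which chose the domains, and are over the genes of each list found in the annotation. All 10 of the ES cell markers examined (Pou5f1, Sox2, Nanog, Klf4, Esrrb, Zfp42, Tdgf1, Dppa5a, Utf1 and Fgf4) had a TSS in a domain. So did 15 of 20 core pluripotency transcription factors, 14 of 23 ES cell effectors, 22 of 28 targets and feedback genes of LIF, BMP, Nodal, FGF and Wnt signalling, and 25 of 30 chromatin and DNA methylation regulators. Among genes used by most cells, the counts were 17 of 19 hnRNP and SR splicing factors, 15 of 18 housekeeping genes of metabolism and the cytoskeleton, and 12 of 16 heat shock proteins and chaperones. The pluripotency factors without a domain were Myc, Nr5a2, Prdm14, Rex2 and Tcf7l1.

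The lists of lineage genes differed in their share with a domain. Of 29 developmental transcription factors, 2 had a TSS in a domain (Nkx2-2 and Olig2), and none of the Hox, Pax or Gata genes of the list did. None of 18 fibroblast genes and none of 8 endoderm and mesoderm markers did, and of 4 neural markers only Nes, an intermediate filament gene, did. Of the wider list of 13 neural and lineage differentiation markers, 3 did (23.1%), a share above the 18.5% of all protein-coding genes. These were Nes (5 kb) and the keratin genes Krt8 (5 kb) and Krt18 (6 kb), which form the filaments of simple epithelia. Nkx2-2 gave a log2 13HH3 ratio over input of 0.72 (95% interval 0.39 to 1.04) and a 7G8 ratio of 0.59 (0.27 to 0.91). Olig2 gave 0.57 (0.19 to 0.95) for 13HH3 and -0.08 (-0.49 to 0.34) for 7G8, which was not above input.

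H3K14ac was higher over broad domains than over fixed windows with both antibodies. Ratios over input are given on the log2 scale after scaling each library to 10,000,000 tags, with an exact conditional binomial interval for 1 domain and an exact binomial interval for a median over domains. The median log2 ratio of 13HH3 was 0.77 (0.75 to 0.79) with a TSS and 0.90 (0.87 to 0.93) without. For 7G8 it was 0.72 (0.71 to 0.74) and 0.75 (0.72 to 0.78), so that the intervals of both classes overlapped. Over all fixed 5 kb windows of the autosomes with 10 or more input tags the medians were -0.07 and 0.04. The 13HH3 ratio was above 0 in 96.4% of the domains and the 7G8 ratio in 94.7%.

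At least 2-fold over input was the size used to call a domain. In fixed windows 3.3% passed this size for 13HH3, 3.19% for 7G8 and 1.33% for both. Of the 4962 domains, 1673 (33.7%) passed for 13HH3, 1408 (28.4%) for 7G8 and 1074 (21.6%) for both. The rule capped input in the domains and not in the windows, so tag densities per kb and per 10,000,000 tags are given as well. Over all domains the medians were 9.16 for 13HH3, 8.67 for 7G8 and 5.33 for input, and over the windows 3.79, 4.11 and 3.93. Input was thus denser in the domains too. Domains with a TSS had median densities of 22.5 for H3K9ac, 8.72 for 13HH3, 8.44 for 7G8 and 5.18 for input. Domains without a TSS had 17.5, 10.3, 9.28 and 5.62. H3K9ac was thus denser in the domains with a TSS, while both H3K14ac antibodies and input were denser in those without.

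The class without a TSS was not uniform. It was split into 990 domains that overlapped a gene body and 520 that lay between genes, a split made after the values were seen. Intergenic domains had the higher median log2 ratios, 1.00 (0.94 to 1.06) for 13HH3 and 0.97 (0.90 to 1.03) for 7G8. In the domains that overlapped a gene they were 0.86 (0.82 to 0.89) and 0.65 (0.62 to 0.70). Of the 520 intergenic domains, 260 passed 2-fold for 13HH3 and 246 (47.3%) for 7G8. Of the 990 that overlapped a gene, 367 (37.1%) and 222 (22.4%) did. For 7G8 the ratio in the domains overlapping a gene was thus below that of the domains with a TSS. In median density, 13HH3 was at 10.2 in intergenic domains and 10.4 in those overlapping a gene, with overlapping intervals. Input was at 5.15 and 5.90, so the order of the 13HH3 ratios went with the lower intergenic input. The 7G8 densities were 9.76 and 9.05, both above the 8.44 of domains with a TSS. The comparison of ratio distributions shows these classes beside the fixed windows.

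**Figure D2:**
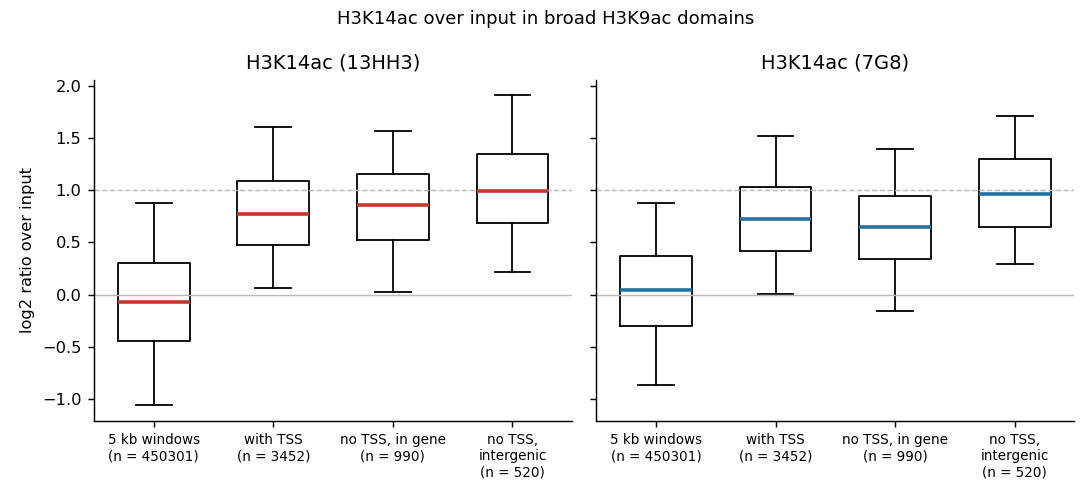
Log2 ratio over input of H3K14ac with 13HH3 (left) and 7G8 (right) in fixed 5 kb windows, domains with a TSS, TSS-free domains overlapping a gene and TSS-free intergenic domains. Boxes span the quartiles with the median as a coloured line, whiskers reach the 5th and 95th percentiles, and the dashed line marks 2-fold; intergenic domains have the highest medians, 1.00 and 0.97.

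The order of both classes was compared at like H3K9ac and like input. The rule used both of these counts, and input is also the denominator of the ratios. The groups are therefore a description and no independent check of the order. Within each of 5 equal groups of domains by H3K9ac density, the TSS-free domains had the higher median ratio of both antibodies. In the group with the most H3K9ac, 13HH3 was at 1.03 (0.99 to 1.09) in 863 domains with a TSS and at 1.45 (1.35 to 1.53) in 126 without, and 7G8 was at 1.03 (1.00 to 1.06) and 1.30 (1.21 to 1.38). Within each of 3 groups by input density the order was the same. By chromosome, the TSS-free median was the higher one on 15 of 19 chromosomes for 13HH3 and on 14 for 7G8.

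Tag density differed between chromosomes in a way that was not shared by all libraries. Relative to the autosomal mean, chromosome 17 had an input density of 1.38 and a 13HH3 density of 1.04, whereas chromosome 12 had 0.775 and 0.942. The median log2 ratio of 13HH3 over fixed windows accordingly ran from -0.36 on chromosome 17 to 0.18 on chromosome 12. For domains with a TSS the medians were 0.61 on chromosome 17 and 1.21 on chromosome 12, the highest. Not all chromosomes kept this order. The lowest domain median was 0.58, on chromosome 9, and chromosome 1 had 0.86 with its windows at -0.21. The values of single domains are given without taking off these offsets unless stated. Chromosome 11 held the most domains, 51.05 per 10 Mb, against 10.06 on chromosome 14, and its relative density was 1.52 for H3K9ac and 1.31 for input.

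In the bins that held a TSS, the ratios were higher in longer regions. Bins holding a TSS gave pooled log2 ratios of 13HH3 of 0.83 (0.82 to 0.84) in regions of 1 to 2 kb, 0.93 (0.92 to 0.95) in regions of 3 to 4 kb, 1.00 (0.98 to 1.01) in domains of 5 to 9 kb and 1.13 (1.11 to 1.15) in those of 10 kb or more. For 7G8 the same bins gave 0.61, 0.74, 0.83 and 0.91. Input, which the rule capped, fell over the same range, with a mean of 11.4, 10.6, 10.5 and 10.4 tags per bin. The mean of 13HH3 was 22.6, 22.7, 23.5 and 25.4 tags, so from the shortest group to the next it was nearly level while its ratio rose, and that of 7G8 was 21.4, 22.0, 23.2 and 24.1. H3K9ac, which the rule used, went from 2.05 to 2.68. Over whole regions the step at the 5 kb limit was slight. The 2475 regions of 4 kb, just outside, had medians of 0.81 for 13HH3 and 0.70 for 7G8, and the 1514 domains of 5 kb had 0.79 and 0.71. The 2-fold size was passed for 13HH3 by 29.3% of regions of 1 to 2 kb and 34.3% of those of 3 to 4 kb. For 7G8 it was 16.1% and 27.2%. Regions under 10 input tags were left out, which kept 26525 of 34164 and 7422 of 7428, and all 4962 broad domains. The regions left out were those with the fewest input tags, so the shares are not over like sets. Pooled over all regions, the log2 ratio of 13HH3 was 0.83 at 1 to 2 kb, 0.81 at 3 to 4 kb and 0.85 in broad domains. For 7G8 the pooled ratios were 0.60, 0.67 and 0.74. With a TSS the 13HH3 shares were 30.8% and 34.4%, against 30.3% of broad domains, and those of 7G8 21.6% and 31.0%, against 27.2%. Without a TSS they were 28.9% and 34.2%, against 41.5%, for 13HH3 and 14.6% and 23.0%, against 31.0%, for 7G8. At 3 to 4 kb the 7G8 median was 0.72 with a TSS and 0.62 without.

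Around the TSS the domains stretched into the gene. In the 2135 domains whose only gene start was that of 1 protein-coding gene, the domain reached a median of 1.87 kb upstream and 4.59 kb downstream, and 76.7% reached farther downstream than upstream. The whole gene was covered in 9.60% of them. The ratio of H3K9ac over input was close to level across the TSS, at 7.10-fold at 250 bp upstream, 6.93-fold at 250 bp downstream and 7.02-fold at 750 bp downstream. That of 13HH3 was highest at 250 bp downstream, with 2.64-fold, and that of 7G8 at 750 bp upstream, with 2.26-fold. At 250 bp downstream the 7G8 ratio was 1.72-fold, below the 2.17-fold at 250 bp upstream and the 2.08-fold at 750 bp downstream. Input itself changed over these steps, from 9247 tags at 250 bp upstream to 12170 at 250 bp downstream and 11218 at 750 bp downstream. The tags of 7G8 did not dip, with 24802, 25840 and 28754 at the same positions, so its lower ratio went with the higher input. In tags, H3K9ac was highest at 250 bp downstream, with 101251 against 78838 at 250 bp upstream, and 13HH3 was highest there too, with 36026 against 19537. The tags of 7G8 were highest at 750 bp downstream. The TSS-aligned profile of ratios shows 7G8 above 13HH3 just upstream of the TSS and below it just downstream, and the tags had the same order.

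**Figure D3:**
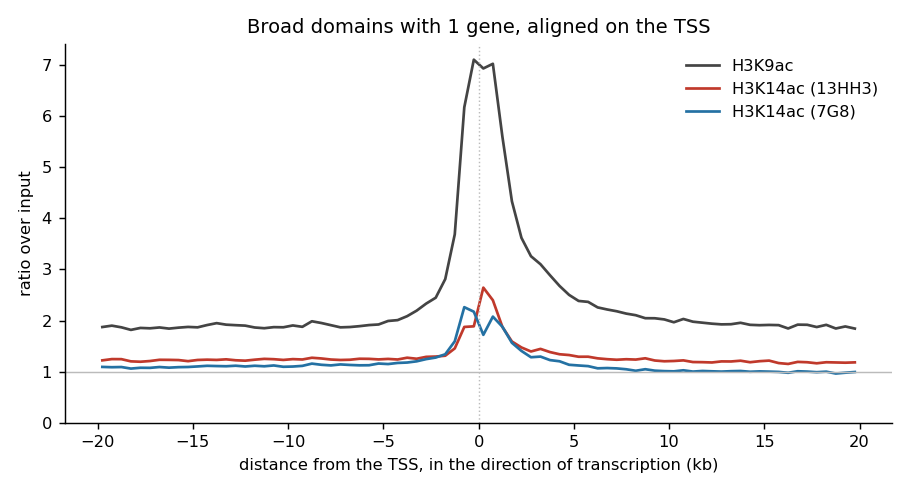
Tags over input, as a linear ratio, in 0.5 kb steps around the TSS of the 2135 broad domains with 1 gene, oriented in the direction of transcription. The ratio of H3K9ac reaches 7.10 at 250 bp upstream, 13HH3 2.64 at 250 bp downstream and 7G8 2.26 at 750 bp upstream.

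H3K14ac was not confined to the TSS bin. In domains with a TSS, the bins that held one gave a pooled log2 ratio of 13HH3 of 1.04 (1.03 to 1.06) and all other bins 0.74 (0.74 to 0.75), and for 7G8 the values were 0.86 and 0.68. In domains without a TSS the ratio was 0.94 (0.93 to 0.95) for 13HH3 and 0.77 (0.76 to 0.78) for 7G8. Both antibodies thus lay above the non-TSS bins of the first class. Along the length of the domains both antibodies rose from the edges to a plateau. With a TSS, 13HH3 stood at 1.42-fold in the first of 50 slices, 1.74-fold in the 5th and 1.81-fold in the middle one, and 7G8 at 1.33-fold, 1.64-fold and 1.73-fold. Without one, 13HH3 stood at 1.96-fold in the middle and 1.72-fold in the last, and 7G8 at 1.76-fold and 1.52-fold. In every flanking bin, too, both antibodies were higher beside the domains without a TSS. In the 5th kb past the end, 13HH3 stood at 1.21-fold with a TSS and 1.46-fold without. There 7G8 stood at 1.06-fold and 1.22-fold. The higher ratios were thus not confined to the TSS-free domains, and domains with a TSS rose further above this flank. The cause was not tested. The dips next to the edges in the profile across the domains lie in bins that failed the rule.

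**Figure D4:**
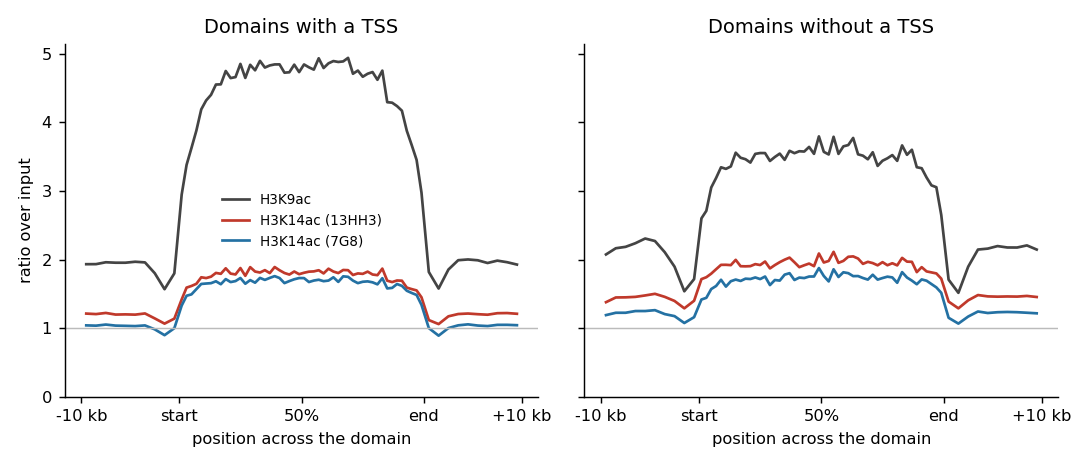
Tags over input, as a linear ratio, across domains with a TSS (left, n = 3452) and without (right, n = 1510), each domain cut into 50 equal slices and flanked by 10 kb in 1 kb bins. The mid-domain H3K9ac ratio is 4.84 with a TSS and 3.57 without, while that of 13HH3 is 1.81 and 1.96.

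The H3K14ac antibodies ranked domains in a related order, which was not particular to this pair. Across the 3452 domains with a TSS, the log2 ratios of 13HH3 and 7G8 had a Pearson r of 0.76 and a Spearman rho of 0.74. Across the 1510 without, the values were 0.75 and 0.73. These ratios share the input library as denominator. On log2 densities without input, r was 0.64 and 0.73. With the ratio of H3K9ac, which chose the domains, that of 7G8 had a higher r, 0.83 with a TSS and 0.82 without. That of 13HH3 had 0.61 and 0.56. On densities, r with H3K9ac was 0.48 and 0.62 for 7G8 and 0.22 and 0.39 for 13HH3.

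The longest domain lay on chromosome 7 (chr7:29719001-29771000) over Actn4, an actin crosslinker, Eif3k, a translation initiation factor subunit, and Map4k1, a kinase. It held 3201 H3K9ac, 980 13HH3, 1139 7G8 and 486 input tags, and its log2 ratios were 0.85 (0.69 to 1.01) for 13HH3 and 0.93 (0.77 to 1.08) for 7G8. Next came Esrrb and Trim71, with 46 kb each. Esrrb, an orphan nuclear receptor of the pluripotency network (chr12:87805001-87851000), held 2916 H3K9ac, 1427 13HH3, 1187 7G8 and 394 input tags. Its ratios were 1.69 (1.53 to 1.86) for 13HH3 and 1.29 (1.12 to 1.46) for 7G8. Trim71, an RNA-binding ubiquitin ligase of early development, held 2711 H3K9ac, 916 13HH3, 977 7G8 and 546 input tags, and its ratios were 0.58 (0.43 to 0.74) and 0.54 (0.38 to 0.69). Less the window median of their chromosome, 13HH3 was at 1.51 (1.35 to 1.67) in Esrrb and 0.83 (0.67 to 0.98) in Trim71, and these intervals did not overlap. For 7G8 the values were 0.97 (0.80 to 1.14) and 0.72 (0.57 to 0.88), with overlapping intervals.

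The other long domains with a TSS lay over Zfp57, which maintains imprints (45 kb), Lasp1 (40 kb), Phf17 (39 kb), Midn with Cirbp (39 kb) and Cenpt with Nutf2 (37 kb). Their 13HH3 ratios ran from 0.29 (0.11 to 0.47) at Midn to 1.04 (0.88 to 1.21) at Zfp57. Less the window median of their chromosome, the lowest was Cenpt, at 0.32 (0.13 to 0.52), with Midn at 0.45 (0.28 to 0.63), and Zfp57 stood at 1.40 (1.23 to 1.57). Within Esrrb, H3K9ac reached its maximum of 162 tags per kb in the 40th kb of the domain, where 13HH3 gave 113 and 7G8 gave 70 tags. The stretch printed above lies in that bin.

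The miRNA genes Mir290 to Mir295 (chr7:3198001-3224000, 26 kb) had the highest 13HH3 ratio of the domains with a TSS and 50 or more input tags. They encode miRNAs that are among the most abundant in ES cells. The domain held 2901 H3K9ac, 1243 13HH3, 908 7G8 and 192 input tags, and its log2 ratios were 2.53 (2.31 to 2.76) for 13HH3 and 1.94 (1.71 to 2.17) for 7G8. Without the minimum of 50 input tags, the highest was the domain of the noncoding genes Gm12100 and Gm12101, with 476 H3K9ac, 229 13HH3, 218 7G8 and 22 input tags. It gave 3.22 (2.58 to 3.92) for 13HH3 and 3.01 for 7G8, and it was named after its values were seen. The 7 annotated starts of the Mir290 to Mir295 domain are the 5′ ends of the hairpins. At the hairpins, in the 21st kb, H3K9ac gave 307 and 13HH3 188 tags, whereas 7G8 was highest in the 9th kb, with 58. Of the mature miRNAs of the cluster in the RefSeq table (GRCm38.p6), several shared a seed (bases 2 to 8, in capitals). One seed was common to 3 of the 3p arms, which are shown with another 2 whose seed begins with the same bases. A different seed was common to 3 of the 5p arms (miR-290a-5p, miR-292a-5p and miR-293-5p).
mmu-miR-291a-3p: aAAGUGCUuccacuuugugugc
mmu-miR-294-3p: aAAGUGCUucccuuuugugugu
mmu-miR-295-3p: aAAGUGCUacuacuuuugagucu
mmu-miR-290a-3p: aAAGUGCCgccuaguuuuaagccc
mmu-miR-291b-3p: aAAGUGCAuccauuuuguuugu

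Both noncoding RNAs of nuclear bodies on chromosome 19 had broad domains. Malat1, of nuclear speckles, lay in 27 kb with 2395 H3K9ac, 924 13HH3, 785 7G8 and 279 input tags. Neat1, the scaffold of paraspeckles, lay in 19 kb with 1627, 944, 714 and 214 tags. The 13HH3 ratio was 1.56 (1.37 to 1.76) at Malat1 and 1.98 (1.76 to 2.20) at Neat1, with intervals that just overlapped. For 7G8 the ratios were 1.19 (0.99 to 1.39) and 1.43 (1.21 to 1.66), with overlapping intervals. Over the 8 domains of the noncoding RNA list, 5 passed 2-fold for 13HH3 and 6 for 7G8, against 30.3% and 27.2% of all domains with a TSS.

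Pluripotency genes differed in 13HH3, and not all of these differences were seen with 7G8. The ratios here include the chromosome offsets, which for 13HH3 ran from -0.36 to 0.18 over fixed windows. Gaps between genes on different chromosomes therefore hold a part that is not of the genes alone. The octamer factor Pou5f1 lay in 10 kb with 701 H3K9ac, 209 13HH3, 270 7G8 and 113 input tags, and its 13HH3 ratio was 0.72 (0.39 to 1.07). Sox2, its partner, lay in 10 kb too, with 811, 280, 200 and 73 tags and a 13HH3 ratio of 1.78 (1.40 to 2.17). For 7G8 their ratios were 0.95 (0.63 to 1.28) and 1.15 (0.76 to 1.56), which overlapped. For 13HH3, Nanog (9 kb) gave 0.88, Sall4 (19 kb) 0.70, Klf4 (7 kb) 1.55, Klf2 (9 kb) 1.94 and Zfp42 (16 kb) 1.75. For 7G8, Nanog gave 0.98, Sall4 0.77, Klf4 0.75, Klf2 1.44 and Zfp42 1.22. The intervals of Klf4 and Nanog overlapped with both antibodies. Of the 15 domains of core pluripotency factors, 8 passed 2-fold for 13HH3 and 5 for 7G8, against 30.3% and 27.2% of all domains with a TSS, and the count for 7G8 was near that share. Of the 14 domains of ES cell effectors, 9 and 8 did. Tdgf1, a Nodal co-receptor, had one of 15 kb with a 13HH3 ratio of 1.70, and Cdh1, the cadherin of epithelial and ES cells, one of 21 kb with 1.17 (0.93 to 1.41).

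Domains of signalling targets had a median length of 7.5 kb, close to the 7 kb of all domains with a TSS, and 15 of the 22 spanned 5 to 9 kb. The longest, that of Etv5, an FGF-responsive ETS factor, had 28 kb with 1850 H3K9ac, 756 13HH3, 755 7G8 and 244 input tags, and a 13HH3 ratio of 1.47 (1.26 to 1.68). Socs3, the feedback inhibitor of LIF signalling, had 20 kb and 1.02 (0.81 to 1.23), and the immediate early gene Ier2 had 17 kb and 1.44 (1.16 to 1.73). Of the 22 domains of this list, 14 passed 2-fold for 13HH3 and 7 for 7G8, against the same 30.3% and 27.2%, so the count for 7G8 was near the share of all. Of the 25 domains of chromatin regulators, 10 and 12 did. Among these, Brd2, a bromodomain protein, had 20 kb and 13HH3 at 1.57 (1.32 to 1.83), and Tet1, a methylcytosine dioxygenase, 18 kb and 0.91 (0.62 to 1.21).

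Splicing factor genes had domains of a median 8 kb with high ratios. Of their 17 domains, between 5 and 21 kb long, 14 passed 2-fold for 13HH3, 15 for 7G8 and 13 for both, against 30.3%, 27.2% and 20.05% of all domains with a TSS. Hnrnpa3 held 884 H3K9ac, 211 13HH3, 246 7G8 and 41 input tags in 10 kb, with ratios of 2.20 (1.71 to 2.72) and 2.28 (1.80 to 2.80). Its 13HH3 density of 9.76 per kb was close to the median of 8.72, and its input density of 2.12 was below the median of 5.18. The high ratio thus went with a low denominator. Hspa8, the constitutive Hsp70, had 950, 286, 263 and 53 tags in 11 kb and 13HH3 at 2.27 (1.84 to 2.72). Of the 11 domains of heat shock proteins and chaperones, 5 passed for 13HH3 and 7 for 7G8. Of the 15 domains of housekeeping genes, 7 passed for 13HH3 and 4 for 7G8, the latter near the 27.2% of all domains with a TSS, and Actb gave 1.28 (0.99 to 1.57) over 14 kb.

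In 2 domains both H3K14ac antibodies were denser than H3K9ac. The clearer one lay at Gm11735 and BC018473 inside St6galnac1, a sialyltransferase gene (chr11:116606001-116620000, 14 kb), and held 581 H3K9ac, 750 13HH3, 738 7G8 and 133 input tags. Per kb and 10,000,000 tags these were 17.9, 24.8, 22.1 and 4.92. Its log2 ratios were 2.33 (2.06 to 2.61) for 13HH3 and 2.17 (1.90 to 2.45) for 7G8, against 1.86 for H3K9ac. It ranked among the highest of its class by both antibodies. The other, a TSS-free domain in Slc23a2 (chr2:131929001-131934000, 5 kb), held 135 H3K9ac, 148 13HH3, 140 7G8 and 43 input tags, and its densities of 11.6 for H3K9ac and 11.7 for 7G8 were nearly equal. It was named after its values were seen. Across all domains, 67 (1.35%) had a 13HH3 density at or above that of H3K9ac, and 60 of them held no TSS.

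The TSS-free domains lay a median of 9211.5 bp from the nearest annotated TSS of any transcript, with quartiles of 4535.5 and 19021.5 bp. There were 358 (23.7%) farther than 20 kb, and the farthest lay 243345 bp away. Of the 1510, 849 lay wholly in a gene body.

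Among the longest TSS-free domains, 7 of 21 to 25 kb are described here. Those near BC096441 (23 kb), Ranbp17 (22 kb) and Wasf2 (22 kb) were intergenic, and those in BC032203 (25 kb), Clic4, Zfp710 (22 kb each) and Cdh1 (21 kb) overlapped the named gene. Their 13HH3 ratios ran from 0.78 (0.54 to 1.02) in Clic4 to 1.22 (0.96 to 1.49) near Ranbp17. The Cdh1 gene thus carried a second domain downstream of that at its TSS, with 912 H3K9ac, 413 13HH3, 433 7G8 and 204 input tags and a 13HH3 ratio of 0.85 (0.61 to 1.10).

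The highest ratios of both antibodies among the TSS-free domains with 50 or more input tags were near Klf9, a Krüppel-like factor gene whose TSS was 41716 bp away (chr19:23158001-23174000, 16 kb). The nearest TSS of any transcript was 7658 bp away. The domain held 1755 H3K9ac, 652 13HH3, 585 7G8 and 103 input tags, and its ratios were 2.50 (2.20 to 2.81) and 2.20 (1.90 to 2.52). The domain near Smarcad1, a chromatin remodeller (chr6:64968001-64978000, 10 kb), followed for 13HH3 with 932, 468, 379 and 83 tags and a ratio of 2.33 (1.99 to 2.69). By tag density it lay above the domain near Klf9, with 21.6 against 18.8 for 13HH3, 15.9 against 15.3 for 7G8 and 4.30 against 3.33 for input. That near BB014433 held 282 H3K9ac and 256 13HH3 tags and gave 2.16 (1.73 to 2.63). For 7G8 the domain near Pura followed that near Klf9, with 548 H3K9ac, 243 13HH3, 266 7G8 and 54 input tags and a ratio of 2.00 (1.57 to 2.45). Without the minimum of 50 input tags, the highest TSS-free 13HH3 ratio was near Sall1, a zinc finger factor gene. The Sall1 TSS, the nearest of any transcript, was 90061 bp away. That domain of 6 kb held 563 H3K9ac, 356 13HH3, 256 7G8 and 47 input tags and gave 2.76 (2.32 to 3.23), and it was named after its values were seen. The maps of 5 domains show every library bin by bin.

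**Figure D5:**
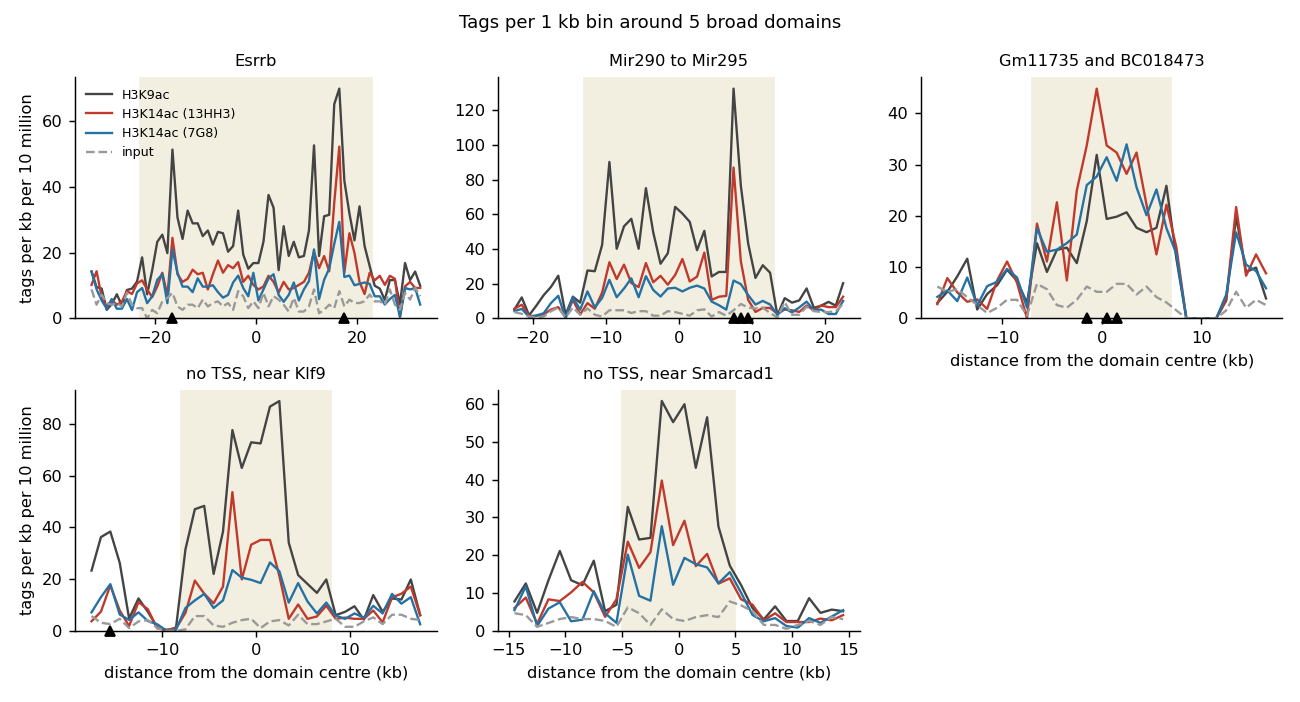
Tags per kb and per 10,000,000 library tags in 1 kb bins around 5 broad domains, against distance from the domain centre in kb; shading marks the domain, triangles mark bins with an annotated TSS, and the dashed line is input. At Gm11735 and BC018473 both H3K14ac lines lie above H3K9ac over much of the domain, and in the other 4 domains H3K9ac has the highest peak.

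At the other end, some domains showed no H3K14ac above input. With a TSS the lowest 13HH3 ratios were at Lmtk3, -0.83 (-1.43 to -0.24), at Arhgef19 with C630004L07Rik, and at Commd1 with Zrsr1, each -0.64 (-1.13 to -0.15). The Commd1 domain held 481 H3K9ac, 62 13HH3, 167 7G8 and 86 input tags, and its 7G8 ratio was 0.65 (0.27 to 1.05). The H3K14ac antibodies thus differed there beyond counting error. For 7G8 the lowest were Nup85, a nuclear pore gene, -0.79 (-1.29 to -0.29), Spdef, -0.58 (-1.03 to -0.14), and Cog4, -0.57 (-1.06 to -0.07). Without a TSS, the domain in Epo next to Gigyf1 held 196 H3K9ac, 113 13HH3, 69 7G8 and 113 input tags, and 7G8 was at -1.02 (-1.47 to -0.57). The domain in Plcb3 next to Bad was below input with both antibodies, with 160 H3K9ac, 79 13HH3, 68 7G8 and 97 input tags and ratios of -0.46 (-0.91 to -0.02) and -0.82 (-1.29 to -0.35). The lowest TSS-free 13HH3 ratios beside it were near Snrpd2, -0.48 (-1.03 to 0.06), and near Cdc42ep2, -0.46 (-0.85 to -0.08). For 7G8 the domain in Scamp4 gave -0.66 (-1.09 to -0.24). The domain near Cdc42ep2 lay only 6 bp from the Cdc42ep2 TSS, and that in Epo 893 bp from the Gigyf1 TSS. These 11 domains were 5 to 9 kb long and had input densities between 5.70 and 10.0 tags per kb and per 10,000,000 tags, all above the class medians of 5.18 and 5.62.

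The DNA of the domains was richer in CpG than the genome at large. In the middle 5 kb of each, the median was 24.5 CpGs per kb with a TSS and 13.4 without, against 7.2 in 478571 fixed windows with at most 10% undetermined bases. The observed over expected CpG ratio was 0.394, 0.230 and 0.169, and the GC content 49.9%, 48.2% and 41.4%. The TSS-free domains were thus close to those with a TSS in GC content but not in CpG. Among the TSS-free domains, 7G8 was lower where CpG content was higher, from a median of 0.88 (0.83 to 0.97) in the 1st of 4 equal groups, with the fewest CpGs, to 0.60 (0.54 to 0.65) in the 4th. For 13HH3 the medians of these groups did not fall steadily, with 0.93, 0.99, 0.92 and 0.82. The ratio of H3K9ac, which the rule used, went from 1.82 and 1.72 to 1.61 and 1.62. These ratios share the input library, and densities by CpG group were not computed. Among domains with a TSS the 4 groups lay between 0.68 and 0.75 for 7G8 and between 0.71 and 0.83 for 13HH3.

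Short motifs of ES cell factors were counted as exact matches on both strands of the same 5 kb. The Esrrb-type motif TCAAGGTCA was found in 16.3% (15.1 to 17.6%) of domains with a TSS, 21.5% (19.5 to 23.7%) of those without and 10.4% of fixed windows. The Klf-type motif GGGTGTGG was found in 43.3%, 47.2% and 25.8%. The octamer ATGCAAAT, which is rich in A and T, was found in 17.1%, 20.9% and 35.0%, and the Sox-type motif ACAAAGG in 63.8%, 67.4% and 67.3%. Base composition moved these shares. Among windows and domains between the GC quartiles of the TSS-free class, 45.4 to 50.98%, the Esrrb-type motif was in 15.1% of windows, 17.0% of domains with a TSS and 23.9% of those without. The octamer was then in 21.1%, 19.4% and 22.7%, and the Klf-type motif in 39.6%, 41.1% and 49.3%. A match is a description of the letters and not a bound site. The Esrrb stretch printed above held 2 Sox-type matches and none of the other motifs.

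Many domains had a close neighbour on the chromosome. The median gap between neighbouring domains was 52 kb, and 19.6% of the gaps were under 10 kb. A wider gap separated the 13 kb domain of Chd2, a chromatin remodeller, from a TSS-free domain of 14 kb. The latter lay 72369 bp from the Chd2 TSS, and the nearest TSS of any transcript was 17975 bp away. This TSS-free domain held 1075 H3K9ac, 375 13HH3, 400 7G8 and 86 input tags. The 7G8 ratio was 2.01 (1.62 to 2.42) at Chd2 and 1.91 (1.57 to 2.27) in the TSS-free domain. Their input densities of 2.55 and 3.18 were below the class medians of 5.18 and 5.62.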

How the data were processed

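ChIP-seq of 1 library for each of H3K9ac, H3K14ac (13HH3 and 7G8) and input was used, with no replicates. Per the authors' methods, single-end reads (36 bases in the files) were placed on the mm9 genome by ELAND with up to 1 mismatch. The deposited lines give where each tag starts and ends and its strand. These deposited positions are no counts or scores, and the tags were counted here. In the 13HH3 file 3.30% of tags repeated a position and strand, so 1 tag per position and strand was kept, as the other files already had. Tags were assigned to 1 kb bins at a point 100 bp inward from their 5′ end, towards the 3′ side, and domains were joined as the opening states. TSSs came from GENCODE vM1, and the genome was NCBIM37, the same build as mm9.

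Counts were scaled to 10,000,000 library tags. Ratios used domains with 10 or more input tags and exact 95% intervals. The depth of 19313927 to 23839094 tags limits a domain with 50 input tags to the intervals printed. No test between groups was possible with 1 library each, so a fold of 2 stood for a call. Domains were named by fixed rules: the 8 longest of each class, the 3 highest and 3 lowest by each H3K14ac antibody with 50 or more input tags, the one with the most H3K9ac tags, and up to 4 for each gene list, of which some are given only within the counts of their list. Of the 8 longest domains without a TSS, 1 is not reported here. Genes printed beyond these are members of those lists or are said to be chosen after their values were seen. Members, lists and classes were chosen with earlier results of these data known. The share of masked repeats was not computed, since the genome used carries no masking. Python 3.11.15, numpy 2.4.6, pandas 2.3.3, scipy 1.17.1 and matplotlib 3.10.9 were used, and the scripts were tested on simulated data.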

Additional observations from a re-analysis of the deposited data

Results flagged for a closer look

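The rule covered chr1-19 only, and H3K9ac signal also appeared on the chromosomes it left out. The same bins and limits gave 21 broad domains on chromosome X and 3 on chromosome Y. With the H3K9ac and input libraries exchanged, chromosome X gave 1 and chromosome Y 0. Per length this was 1.26 domains per 10 Mb on chromosome X, against 20.1 on the autosomes, where the exchange gave 128. On chromosome Y the last tag ended at position 2902557, and up to there the density was 10.3 domains per 10 Mb. No explanation for the difference in density was tested.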

How the results depend on the processing

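Of 88 recalculated values, 46 were medians, and none of these changed sign. Of 56 medians and shares, 37 left the printed interval, and of 32 counts, 11 moved by more than 1.5 times. With 25 H3K9ac tags per bin there were 8106 domains (64.9% with a TSS), with 40 tags 2046 (74.4%), with only touching bins joined 2660 (72.3%), with H3K9ac thinned to the input depth 2949 (73.0%), and at 8 kb or more 1844 (77.7%). Counting only protein-coding TSSs gave 66.3%. In the order with and then without a TSS, the 13HH3 medians were 0.67 and 0.76 at 25 tags, 0.93 and 1.09 at 40 tags, 0.70 and 0.79 without an input cap, 0.90 and 1.04 with touching bins, 0.87 and 1.01 with thinning, 0.80 and 0.98 at 8 kb, 0.83 and 0.96 with scaling on tags outside the H3K9ac bins, and 0.79 with a TSS for tags as deposited. The 7G8 medians in the same order were 0.59 and 0.58, 0.92 and 1.03, 0.63 and 0.63, 0.90 and 0.96, 0.84 and 0.91, 0.82 without a TSS at 8 kb, and 0.77 and 0.79 with that scaling. Domains passing the fold numbered 986 for 13HH3 and 933 for 7G8 at 40 tags, 634 and 515 at 8 kb, and 3408 and 3068 at 1.5-fold. Centring ratios on the median window of each chromosome, chosen after seeing the data, gave 0.84 and 0.97 for 13HH3 and 0.69 with a TSS for 7G8. Leaving out chromosome 11, also chosen then, left 4340 domains. The TSS-free median was the higher one in 12 of 12 settings for 13HH3, the printed one included, and in 10 of 11 for 7G8, the exception being 25 tags, and without an input cap the 7G8 medians were level at 2 decimals. The scaling on tags outside the H3K9ac bins is not counted, since it cannot change this order. Scaling outside the H3K9ac bins shifted all log2 ratios by 0.06 for 13HH3 and 0.04 for 7G8. The causes were not tested. No paired analysis was possible because each antibody has 1 library. Depth limits the narrowest comparisons: at 50 input tags an interval spans about 1 on the log2 scale.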
